A study of Mus musculus with 48 samples.

Results

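The ATF4 amino acid stress response was followed here as a list of 38 genes, made up of the transcription factor Atf4, its relatives, its feedback targets, and the enzymes, amino acid transporters and aminoacyl-tRNA synthetases that it is known to induce. Members were matched by mouse symbol to the 39017 genes of each of 3 count tables, and a member was kept in a table where at least 4 libraries had 10 or more counts. The rule kept 35 of the 38 members in at least 1 table, with 33 on day 4, 35 on days 5, 6 and 9, and 34 on day 7. Trib3, Chac1 and Slc6a9 were kept in no table, Stc2 was kept only on days 5, 6 and 9, and Pycr1 was kept on day 7 but did not pass the filter of the test there.

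The study sequenced 48 SMART-seq2 libraries (made from whole transcripts, with no record of the strand) of neural stem cells (labelled neural progenitor cells) from the dentate gyrus of mice aged 7 to 8 weeks. The cells of all 12 groups of 4 libraries carried Hopx-CreERT2, a floxed Setd1a on both alleles (Setd1a fl/fl) and an H2B-GFP reporter, and all were held in quiescence medium with BMP4 and FGF2. A lentivirus for GFP made the WT groups and a lentivirus for Cre-GFP made the Setd1a KO groups, which were collected on days 4, 5, 6 and 9. On day 7 both were collected after DMSO, the solvent, or after ORY-1001 (ORY), which blocks LSD1, a demethylase of histones. Setd1a encodes a methyltransferase of histone H3 lysine 4, and LSD1 removes methyl groups from the same residue, so the day 7 groups asked whether blocking the eraser alters what loss of the writer does. Hopx drives the inducible Cre in quiescent stem cells of the living dentate gyrus, but here Cre came from the virus. The deletion, viral Cre and the reporter that Cre switches on therefore cannot be told apart. The study's reporting summary describes the RNA-seq libraries of a group as independent cultures, and the labels number them 1 to 4 without saying what a number shares across groups.

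When amino acids run short or proteins misfold, kinases phosphorylate the translation factor eIF2, most protein synthesis slows, and the mRNA of Atf4 is translated more. The ATF4 protein then binds composite sites with CCAAT-enhancer-binding proteins and switches on genes for amino acid synthesis, uptake and charging of tRNAs. Because ATF4 is set mostly by translation, the level of Atf4 mRNA is not a measure of its activity, and adult neural stem cells are known to change their protein synthesis as they leave quiescence.

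The composite site (CARE, the response element shared by CCAAT-enhancer-binding proteins and activating transcription factors) has the core TGATGNAA, written TTNCATCA on the other strand, where N is any base. A window from 250 bases before to 50 bases after each start site in RefSeq (GRCm38.p6) was read on both strands. Windows of 30 of the 38 members were read, and 11 of them (36.67%) held the core, against 1218 of 27024 genes (4.507%) over all windows of the same 300-base length. The members had been listed as ATF4 targets, for which this site is known, so the higher share is a description of the list. The sites of the members to which the results below return are shown with the core in capitals, each 5′ to 3′ on the strand of its gene.
Nupr1, chr7:126625562-126625591: aaagggccagaTTGCATCAgacagggcttg
Vldlr (second start site), chr19:27216809-27216838: agcagcaatagTTGCATCAgcgctcctagc
Asns, chr6:7693214-7693243: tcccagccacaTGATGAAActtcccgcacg
Gars, chr6:55037960-55037989: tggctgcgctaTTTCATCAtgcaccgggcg
Tars, chr15:11399655-11399684: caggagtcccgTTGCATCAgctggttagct
Yars, chr4:129189895-129189924: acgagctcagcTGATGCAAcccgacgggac
Nupr1, Asns and Tars lie on the minus strand, and Vldlr, Gars and Yars on the plus strand. Trib3, Chac1, Pycr1, Slc1a4 and Iars also held the core. No core was found in the windows of Atf4, Ddit3, Psat1, Psph, Slc38a2 or Sars, and 7 members had no window (Eif4ebp1, Cth, Slc7a5, Nars, Wars, Cars and Lars). Sequence outside the windows was not searched, so a member without the core here may hold one elsewhere.

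**Figure D1:**
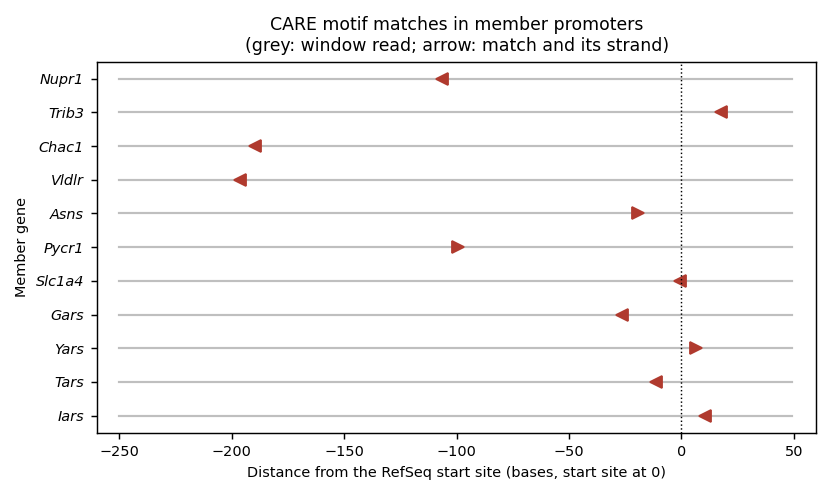
Position of each match to the core in the promoter windows of the 11 members that held one (x axis, bases from the RefSeq start site at 0; 1 row a gene; arrows point along the strand of the match). Matches lay from 200 bases before the start (Vldlr) to 14 bases after it (Trib3).

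Libraries held 3137352 to 20588555 counts, and levels are given as CPM, counts scaled to a common library size (TMM) within a table. Of 9 neural stem and astroglial markers none was at 0 in any group, while summed microglial markers stayed at or below 7.56 CPM and endothelial markers at or below 10.2 CPM in every library. On day 7 the summed stem and astroglial markers were 14750 to 15900 CPM in KO with DMSO, against 10780 to 12320 CPM in the other 3 groups. The single markers split. Of the 9, 6 were higher and 2 lower in KO than in WT with DMSO (88.9% past the test, against 36% of all genes). Their log2 fold changes ran from -2.39 to 1.16. The 6 oligodendrocyte lineage markers, with Sox10 at 0 throughout, summed to 202 to 223 CPM in WT with DMSO and 376 to 410 CPM in KO with DMSO. On days 5 and 9 these markers were also higher in KO (234 to 253 and 224 to 235 CPM) than in WT (170 to 191 and 160 to 185 CPM). With ORY on day 7 they were higher in KO as well (351 to 394.5 against 262 to 298 CPM). On day 4 they were lower in KO (231 to 245 CPM) than in WT (275 to 293 CPM), and on day 6 KO and WT overlapped. Between days in WT, summed stem and astroglial markers were 17440 to 18190 CPM on day 5, 11670 to 12080 CPM on day 6 and 16580 to 17290 CPM on day 9, and 5 cycling markers were 337 to 374, 138 to 150.5 and 275 to 318 CPM. In KO the summed cycling markers were lower than in WT on day 6, at 108 to 119 CPM. Of the 5 single genes 3 were lower past the test (60%, against 13.1% of all genes) and 2 were above 0. Their log2 fold changes ran from -0.93 to 0.49. On day 7 with DMSO the sum was higher in KO, at 122 to 149.5 CPM against 107 to 115 CPM in WT. Here 2 of the 5 were higher past the test (40%, against 36%) and 3 were above 0, from -0.63 to 0.82. With ORY the sum in WT was 120 to 144 CPM. On days 4, 5 and 9 and with ORY the sums of KO and WT overlapped. Setd1a itself stood at 0 to 5.41 CPM and passed the test between KO and WT in 0 of 6 comparisons, but reads outside the deleted part cannot check the deletion. Its KO libraries lay above all WT libraries on day 6 (2.91 to 5.41 against 1.29 to 2.69 CPM). They also did with ORY on day 7 (2.79 to 3.62 against 2.01 to 2.61 CPM), and in the other comparisons the groups overlapped. Gt(ROSA)26Sor was lower in KO in all 6 tests. In bulk RNA, fewer cells of a type and less RNA per cell cannot be told apart, and the part that the marker shifts have in the results below was not tested.

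Members differed widely in level. Per kilobase of exon in WT on day 5, Psat1, which makes phosphoserine from its keto acid, was highest at 62.2 ± 0.594 CPM per kb (SD, n = 4), and Slc3a2, the heavy chain of several amino acid exchangers, followed at 62.0 ± 5.16. Their spreads overlapped. Nars (40.3 ± 2.00), Sars (34.5 ± 2.33) and Asns (31.8 ± 3.30 CPM per kb) came next, and Atf4 was the 11th at 15.1 ± 0.628 CPM per kb. At the other end lay Slc7a1 (0.653 ± 0.196), Pycr1 (0.482 ± 0.256) and Stc2 (0.410 ± 0.150 CPM per kb), whose spreads overlapped. Trib3 and Chac1, which are induced strongly in acute stress, had 0 to 12 and 0 to 11 counts in every library of the series and were not tested.

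The members did not move as 1 block between KO and WT. Slc38a2, the main sodium-coupled importer of small neutral amino acids, was lower in KO on days 4 and 5, higher on day 6 and lower again with DMSO on day 7. Nupr1, a stress-induced chromatin cofactor, was lower in KO on days 5 and 9 and with DMSO on day 7, and Vldlr, a lipoprotein receptor induced by ATF4, was higher on day 6 and lower on day 9. With DMSO on day 7 the synthetases Sars and Tars and the stress factor Ddit3 were also lower in KO, and with ORY none of these 6 genes passed the test, except that Slc38a2 did with scaling to library size only.

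A member was called where its adjusted p (edgeR quasi-likelihood test, Benjamini-Hochberg over all genes of the table) was below 0.05. On day 4 the test called 1 member higher and 1 lower in KO of 33 tested (6.06%, against 1.59% of all genes, with 0.927% higher and 0.665% lower). On day 5 it called 4 higher and 5 lower of 35 (25.7%, against 15% of all genes, with 6.22% higher and 8.76% lower). On day 6 it called 4 higher and 4 lower (22.9%, against 13.1%, with 6.69% higher and 6.45% lower), and on day 9 it called 1 higher and 2 lower (8.57%, against 11.8%, with 6.35% higher and 5.43% lower). On day 7 with DMSO it called 3 higher and 11 lower of 33 (42.4%, against 36%, with 16.9% higher and 19.1% lower). With ORY it called 1 higher and 0 lower (3.03%, against 1.15%, with 0.561% higher and 0.594% lower). Apart from day 9, the share of members called was above the share of all genes in each of these comparisons, though by little with DMSO. On day 4 it rested on 2 members and with ORY on 1. The members were not set against genes of like level, so the part that level has in these shares was not tested.

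The direction over the whole list also changed from day to day. On day 4 the log2 fold change of KO against WT was above 0 for 26 of 33 members, with a median of 0.18 against -0.0026 over all genes. The median of the members was 0.03 on day 5, -0.01 on day 6 and -0.06 on day 9, against 0.02, 0.0011 and -0.0065 over all genes. With DMSO on day 7 it was -0.14 against -0.02, and 23 of 33 members were below 0. With ORY it was 0.05 against -0.0055, with 17 members above 0 and 16 below.

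**Figure D2:**
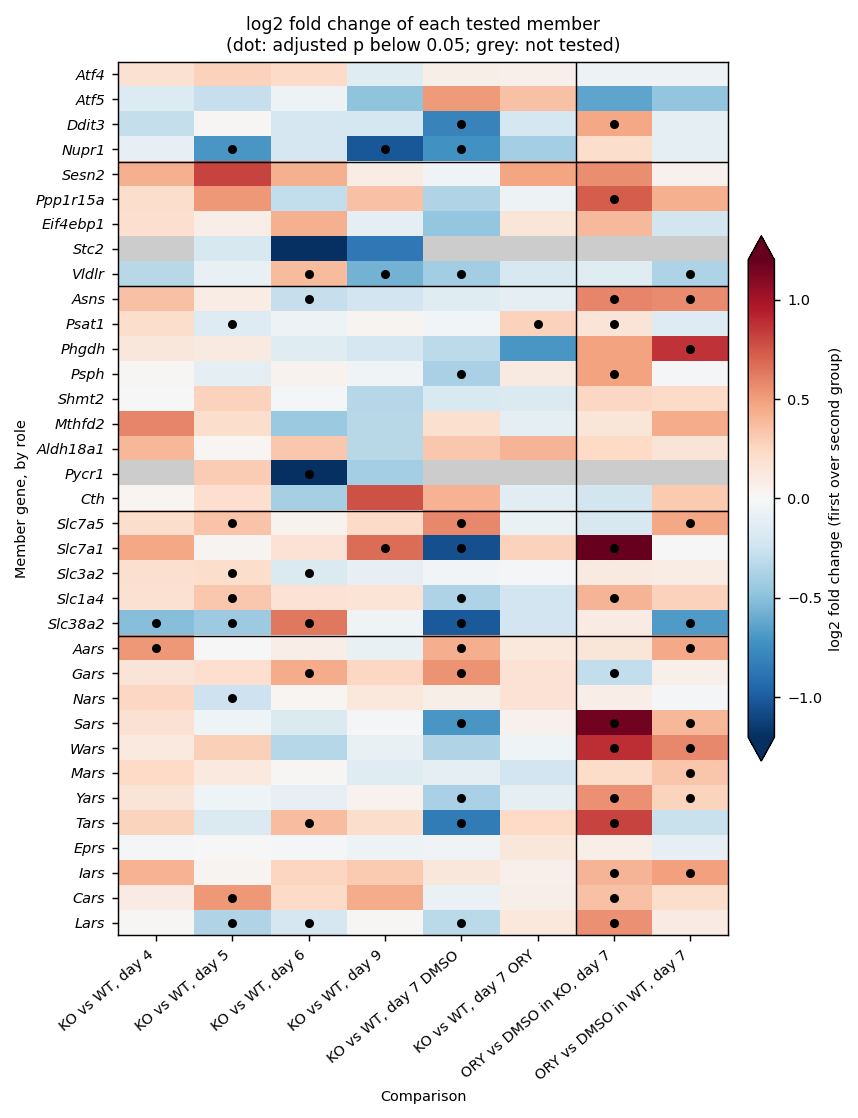
Log2 fold change (colour, first over second group, scale cut at 1.2 in either direction) of each tested member (rows, by role) in 8 comparisons (columns); dots mark an adjusted p below 0.05 and grey cells were not tested. Slc38a2 carries a dot in 5 of the 8 columns with both colours, and Atf4 carries none.

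Libraries 1 and 3 and libraries 2 and 4 of each group lay closest together on days 5, 6 and 9, with chi-square values of 1.81 to 2.53 for each degree of freedom against 2.91 to 9.27 for the other pairs. The study describes the libraries as independent cultures, and what the closer libraries have in common was not given in the sources used here. With the 2 libraries of each such pair summed, as an alternative, 2 calls were left on day 5 (Nupr1 and Slc38a2), 2 on day 6 (Slc38a2 and Vldlr) and 2 on day 9 (Nupr1 and Vldlr), and each of these 6 calls also held in every other alternative. With the replicate number as a block, a fit used here because same-numbered libraries deviated together, 5 members were higher and 8 lower on day 6 and 3 were higher and 3 lower on day 9. When libraries were scaled by their size alone, day 5 had 5 members higher and 4 lower, day 6 had 4 higher and 2 lower, and day 7 with ORY had 1 of each. On day 5 the log2 fold change rose with the GC content of genes (Spearman rho across genes 0.36), and after a correction for GC content and length 0 members were higher and 5 lower. Libraries were summed for days 5, 6 and 9 only. On day 7 libraries 1 and 2 and libraries 3 and 4 lay closest in WT with DMSO (3.888 and 2.941, other pairs 5.843 to 7.955). The same held in KO with ORY (2.674 and 2.805, other pairs 3.889 to 5.394), and not in the other groups of that day.

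Among the transcription factors, Atf4 itself (chr15:80255184-80257541) was called in 0 of the 6 comparisons of KO with WT. In WT its level was 41.5, 38.4, 37.3 and 38.6 CPM on day 4, and in KO it was 45.5, 44.8, 43.1 and 43.2 CPM. On day 5 it was 36, 33.5, 36 and 37.0 CPM in WT and 44.3, 39.4, 41.6 and 47.4 CPM in KO. The KO libraries lay above the WT libraries on both days, but the test was not passed on either (log2 fold change 0.18 ± 0.10 SE, adjusted p = 0.479, and 0.28 ± 0.10, adjusted p = 0.0663). On day 6 WT had 33.3, 30.1, 28.0 and 34.5 CPM and KO 34.0, 39.4, 39.8 and 33.7 CPM, and on day 9 WT had 27.6, 33.2, 24.8 and 31.8 CPM and KO 25.7, 25.2, 27.5 and 26.9 CPM. On day 7 DMSO gave 29.8, 32.7, 27.2 and 31.1 CPM in WT and 27.4, 32.0, 31.4 and 37.2 CPM in KO, and ORY gave 24.8, 28.8, 31.6 and 31.1 CPM in WT and 28.5, 28.8, 31.4 and 32.9 CPM in KO. The groups overlapped in each of these 4 comparisons. In WT the level was lower on day 9 than on day 5 (-0.29 ± 0.10, adjusted p = 0.0411), a call that was lost without any 1 of 5 of the 8 libraries (adjusted p 0.0664 to 0.166). On day 5 the call of KO against WT was gained with library size only and with only the groups compared, and on day 6 with the GC and length correction, with and without the block.

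Ddit3 (chr10:127290774-127296288), which encodes the stress factor CHOP, changed with time and with treatment. On day 7 with DMSO it stood at 46.7, 49.5, 53.6 and 62.4 CPM in WT and at 26.4, 29.3, 30.7 and 36.1 CPM in KO. With ORY it stood at 40.7, 53.8, 49.3 and 51.4 CPM in WT and at 37.0, 42.0, 46.4 and 42.3 CPM in KO. All KO libraries with DMSO were below the other 12 libraries of day 7, and KO and WT overlapped with ORY. The log2 fold change of KO against WT was -0.80 ± 0.11 with DMSO (adjusted p = 3.16e-06), and ORY raised Ddit3 in KO by 0.47 ± 0.11 (adjusted p = 0.00192). On days 4, 5, 6 and 9 no call was made between KO and WT. The level was 28.1, 28.0, 19.8 and 19.9 CPM in WT and 23.5, 20.7, 20.5 and 13.9 CPM in KO on day 4. On day 5 it was 11.18, 12, 14.7 and 16.7 CPM in WT and 11.4, 14.3, 13.9 and 15.2 CPM in KO, on day 6 WT had 37.6, 29.5, 46.2 and 33.2 CPM and KO 30.4, 31.7, 37.9 and 26.3 CPM, and on day 9 WT had 27.0, 19.4, 23.4 and 17.3 CPM and KO 18.6, 17.0, 18.6 and 20.4 CPM. WT and KO overlapped on each of the 4 days. Of the exonic length of Ddit3 10.9% is shared with other gene models, Mars on the opposite strand among them, so a part of its reads cannot be assigned.

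Nupr1 (chr7:126623249-126630861) was lower in KO in 3 comparisons, and WT and KO did not overlap in any of them. On day 5 it stood at 21.2, 21.5, 27.7 and 27.1 CPM in WT and at 11.7, 14.3, 16.2 and 17.1 CPM in KO (-0.70 ± 0.14, adjusted p = 0.000601). On day 9 it stood at 41.1, 31.9, 34.2 and 31.7 CPM in WT and at 19.3, 14.4, 19.8 and 13.7 CPM in KO (-1.02 ± 0.13, adjusted p = 1.88e-06). Between these days, on day 6, the WT libraries had 36.3 to 45.7 CPM and the KO libraries 33.1 to 40.2 CPM, without a call. With DMSO on day 7 the level was 19.6, 26.4, 25.1 and 32.1 CPM in WT and 15.6, 13.6, 14.4 and 19 CPM in KO (-0.73 ± 0.17, adjusted p = 0.00112), and with ORY 18.3 to 29.9 CPM and 13.6 to 22.2 CPM, without a call.

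Atf5, a relative of Atf4 whose translation is controlled in the same way, was low throughout and no call was made between KO and WT. On day 4 the libraries had 5.03, 5.97, 2.97 and 3.92 CPM in WT and 3.29, 4.79, 4.92 and 3.01 CPM in KO. On day 5 they had 3.13, 2.44, 1.89 and 3.03 CPM in WT and 1.39, 2.28, 2.43 and 2.20 CPM in KO, on day 6 they had 4.41, 3.87, 4.56 and 5.10 CPM and 4.21, 3.34, 5.33 and 4.13 CPM, and on day 9 they had 3.58, 2.20, 3.63 and 3.498 CPM and 2.58, 2.94, 1.97 and 2.01 CPM. WT and KO overlapped on all 4 days. With DMSO on day 7 WT had 2.93, 4.38, 2.30 and 4.06 CPM and KO 4.36, 6.38, 3.65 and 5.51 CPM, and with ORY WT had 1.82, 2.27, 2.48 and 3.36 CPM and KO 2.83, 2.62, 4.66 and 2.91 CPM. The call made for Atf5 was in WT, higher on day 6 than on day 5 (0.79 ± 0.26, adjusted p = 0.0127), and it was lost without replicate 3 of WT on day 5, with no filter, with summed libraries and with the GC and length correction, with and without the block (adjusted p 0.053 to 0.0843).

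**Figure D3:**
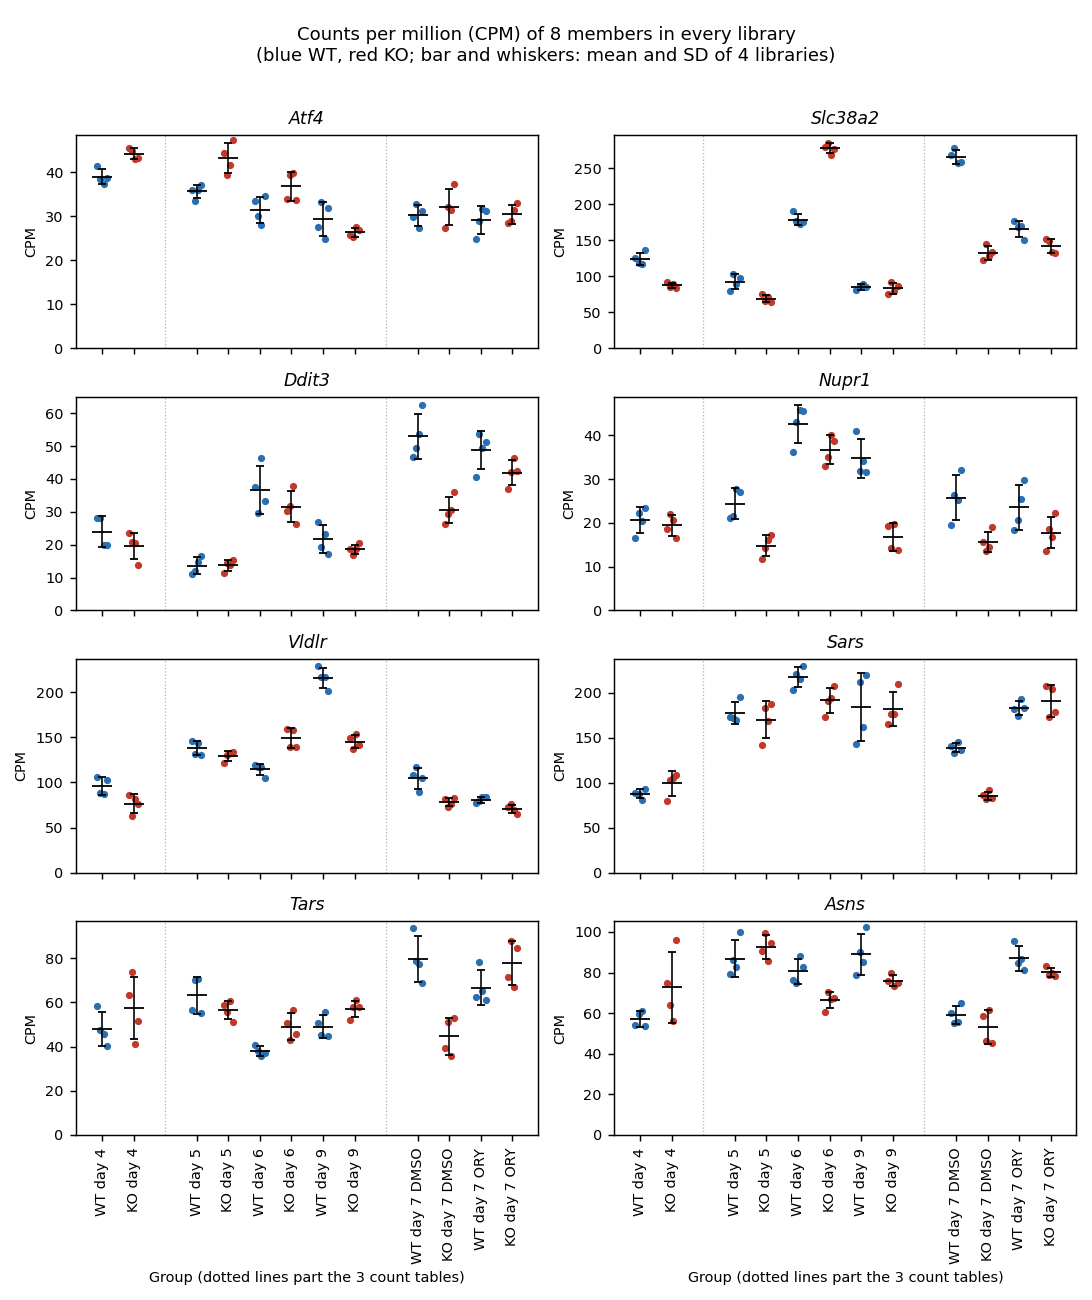
CPM (y axis, starting at 0) of 8 members in each of the 48 libraries (points, blue WT and red KO, by group; bar and whiskers are the mean and SD of 4 libraries; dotted lines part the 3 tables). On day 6 the KO libraries of Slc38a2 lie at 269 to 286 CPM, above all WT libraries of that day, while on day 7 with DMSO they lie at 123 to 145 CPM, below them.

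Among the feedback and signalling members, Vldlr (chr19:27216484-27254231) changed in both directions. On day 6 it stood at 119, 117, 117 and 105 CPM in WT and at 159, 139, 158 and 139 CPM in KO (0.38 ± 0.06, adjusted p = 6.94e-05). On day 9 the order was turned, with 229, 217, 216 and 202 CPM in WT and 150, 137, 154 and 142 CPM in KO (-0.57 ± 0.06, adjusted p = 8.72e-08). WT and KO did not overlap on either day. On day 7 with DMSO it had 108, 117, 89.0 and 105 CPM in WT and 82.2, 72.8, 76.6 and 82.6 CPM in KO (-0.42 ± 0.08, adjusted p = 0.000206). In WT, ORY lowered it to 77.4, 79.2, 83.4 and 84.1 CPM (-0.37 ± 0.08, adjusted p = 0.00252), and in WT it was higher on day 9 than on day 5, where it had 146, 132, 144 and 130 CPM (0.65 ± 0.06, adjusted p = 1.30e-09).

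The feedback genes proper were low and mostly without a call. Ppp1r15a, whose product guides the phosphatase that removes phosphate from eIF2, had 2.44 to 10.3 CPM over the 48 libraries, and its only call, higher with ORY than with DMSO in KO (0.73 ± 0.25, adjusted p = 0.0199), came from groups that overlapped and was lost without any 1 of 3 libraries (adjusted p 0.0569 to 0.108). Sesn2, a leucine sensor, Eif4ebp1, an inhibitor of cap-dependent translation, and Stc2, a secreted glycoprotein, passed no test, in 13 comparisons for Sesn2 and Eif4ebp1 and in the 7 of days 5, 6 and 9 for Stc2. Eif4ebp1 stood at 7.41 to 26.2 CPM, Sesn2 at 1.51 to 6.80 CPM and Stc2 at 0.24 to 3.30 CPM. Trib3, the pseudokinase that restrains ATF4, had 2, 2, 4 and 8 counts in WT and 6, 5, 12 and 9 counts in KO on day 4. On day 5 it had 0, 1, 1 and 3 counts in WT and 2, 3, 4 and 3 in KO, on day 6 it had 9, 3, 12 and 4 and 1, 2, 4 and 7, and on day 9 it had 2, 1, 4 and 0 and 4, 0, 1 and 0. On day 7 it had 0 counts in 13 of 16 libraries and 1, 2 and 1 counts in the other 3. Chac1, which degrades glutathione, had 1, 6, 1 and 3 counts in WT and 5, 1, 0 and 11 counts in KO on day 4, on day 5 it had 3, 0, 1 and 0 and 0, 0, 1 and 1, on day 6 it had 5, 1, 1 and 2 and 0, 0, 2 and 4, and on day 9 it had 0, 0, 2 and 2 and 1, 0, 1 and 0. On day 7 it had 2, 7, 0 and 1 counts in WT and 0, 2, 0 and 2 in KO with DMSO, and 6, 0, 1 and 1 and 0, 0, 0 and 1 with ORY. Neither gene passed the filter on low counts, so neither was tested.

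Among the enzymes, Asns (chr6:7675169-7693254), which makes asparagine, was higher with ORY in both genotypes. On day 7 it stood at 60.2, 55.2, 55.9 and 64.7 CPM in WT with DMSO and at 95.4, 84.6, 86.8 and 81.1 CPM in WT with ORY (0.57 ± 0.09, adjusted p = 0.000111). In KO it stood at 58.7, 46.3, 61.7 and 45.2 CPM with DMSO and at 83.2, 78.6, 79.9 and 78.4 CPM with ORY (0.59 ± 0.09, adjusted p = 1.38e-05). All ORY libraries lay above all DMSO libraries. The difference between the 2 ORY effects was 0.02 ± 0.13 (adjusted p = 0.936). On day 4 the level was 54.1, 59.7, 60.9 and 53.6 CPM in WT and 74.8, 64.1, 56.0 and 96.2 CPM in KO, and on day 5 it was 79.2, 85.9, 82.6 and 99.8 CPM and 90.6, 99.7, 85.5 and 94.6 CPM, with overlap on both days and no call. On day 6 it was 76.5, 74.9, 88.3 and 82.6 CPM in WT and 60.7, 70.4, 67.0 and 67.6 CPM in KO (-0.27 ± 0.08, adjusted p = 0.0247, lost without any 1 of 3 libraries at adjusted p 0.0578 to 0.0861). On day 9 it was 78.5, 90.02, 85.0 and 102 CPM in WT and 76.0, 80.0, 73.2 and 74.9 CPM in KO (-0.23 ± 0.08, adjusted p = 0.0609). This was no call, but it became one in 5 of 17 alternatives, among them the replicate block and DESeq2 (adjusted p over the alternatives 0.0205 to 0.345).

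The 3 enzymes of serine synthesis did not share a pattern. On day 5 Psat1 was called lower in KO (-0.16 ± 0.05, adjusted p = 0.0336), a call lost without any 1 of the 8 libraries (adjusted p 0.0548 to 0.0866). Psph (chr5:129765558-129787449), the phosphatase that releases serine, was lower in KO with DMSO, at 93.8, 83.1, 91.3 and 86.9 CPM against 116, 115, 115 and 120 CPM in WT (-0.39 ± 0.06, adjusted p = 2.40e-05). ORY brought it in KO to 125, 125, 126 and 119 CPM (0.48 ± 0.06, adjusted p = 1.03e-06), and in WT it stood at 112 to 117 CPM with ORY. Psat1 (chr19:15904678-15947337) was the only member called between KO and WT with ORY, at 306, 302, 290 and 293 CPM in KO and 249, 242, 253 and 241 CPM in WT (0.28 ± 0.05, adjusted p = 0.00666), and the groups did not overlap. Phgdh, the entry enzyme, had 5.78 to 8.95 CPM in WT on day 5 and was higher with ORY in WT, at 9.23, 12, 9.14 and 13.3 CPM against 7.10, 5.69, 6.29 and 4.83 CPM (0.87 ± 0.20, adjusted p = 0.00364). Of the 50-base stretches of Phgdh transcripts 47.8% also occur in other genes, pseudogenes of Phgdh among them, so its counts are uncertain, and of the exonic length of Psph 10.44% is shared with another gene model, Cct6a.

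The mitochondrial one-carbon enzymes Shmt2 and Mthfd2, the proline enzymes Aldh18a1 and Pycr1, and Cth, which makes cysteine, were called between KO and WT only once, for Pycr1 on day 6. It had 15, 18, 18 and 15 counts in WT and 2, 7, 7 and 2 counts in KO (-1.67 ± 0.49, adjusted p = 0.0206), and the call was lost without any 1 of 3 libraries (adjusted p 0.0691 to 0.0812). Mthfd2 had 21.7, 21.3, 19.1 and 23.8 CPM in WT and 20.1, 28.2, 23.1 and 26.9 CPM in KO on day 5. On day 6 it had 13.6, 23.4, 16.9 and 18.3 CPM in WT and 12, 13.9, 12.8 and 13.8 CPM in KO, and the effect of KO differed between the days (-0.66 ± 0.21, adjusted p = 0.0374, lost without any 1 of 10 of the 16 libraries). Shmt2, Aldh18a1 and Cth passed none of the 13 tests.

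Among the transporters, Slc38a2 (chr15:96687392-96699730) was called in 4 of the 6 comparisons of KO with WT. On day 4 it stood at 126, 119, 117 and 136 CPM in WT and at 92.1, 85.7, 88.9 and 83.2 CPM in KO (-0.51 ± 0.08, adjusted p = 0.000712). On day 5 it stood at 79.2, 104, 88.7 and 97.8 CPM in WT and at 74.7, 65.7, 70.9 and 63.9 CPM in KO (-0.44 ± 0.07, adjusted p = 9.00e-05). WT and KO did not overlap on either day. On day 6 the order was turned, with 191, 176, 173 and 175 CPM in WT and 279, 286, 269 and 277 CPM in KO (0.63 ± 0.07, adjusted p = 3.09e-08), so both genotypes were above their day 5 level and KO by more. The difference between the effects of KO on days 6 and 5 was 1.07 ± 0.10 (adjusted p = 2.68e-09), and it was called in every alternative run. On day 9 both were back near the day 5 level of WT, at 80.5 to 89.2 CPM in WT and 75.5 to 92.1 CPM in KO, without a call.

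On day 7 with DMSO Slc38a2 was at its lowest in KO relative to WT, at 123, 145, 128 and 134 CPM against 269, 279, 257 and 259 CPM (-1.003 ± 0.07, adjusted p = 1.54e-11). With ORY it stood at 177, 168, 169 and 150 CPM in WT and at 152, 149, 134 and 133 CPM in KO. ORY thus lowered it in WT (-0.68 ± 0.07, adjusted p = 1.26e-07), while in KO the DMSO and ORY libraries overlapped and no call was made. With ORY the difference of KO from WT was -0.23 and was not called.

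The 4 other transporters tested were each called in 2 of the 6 comparisons. Slc7a5, the light chain of the large neutral amino acid exchanger, was higher in KO with DMSO, at 19.7, 21.0, 18.2 and 21.1 CPM against 11.4, 12, 16.1 and 14.5 CPM (0.58 ± 0.14, adjusted p = 0.00143). Its partner Slc3a2 stood at 147 to 171 CPM in KO and 150 to 189 CPM in WT there, with overlap and no call. On day 5 Slc7a5 (0.34 ± 0.11), Slc3a2 (0.21 ± 0.06) and Slc1a4, a carrier of alanine and serine (0.32 ± 0.10), were called higher in KO, and all 3 calls were lost with the GC and length correction, with summed libraries and without some of the libraries (adjusted p 0.0564 to 0.115). Slc7a1, an importer of arginine and lysine, was called higher in KO on day 9 (0.67 ± 0.20) and lower in KO with DMSO on day 7 (-1.05 ± 0.35), but on day 7 it had 6 to 19 counts in KO libraries that overlapped with WT, and both calls were lost without any 1 of 3 to 5 libraries (adjusted p 0.0534 to 0.0896). The call for Slc1a4 with DMSO (-0.37 ± 0.14) was lost without any 1 of 5 libraries (adjusted p 0.0503 to 0.153), with no filter, with only the groups compared and with the GC and length correction, where the value was -0.21 (adjusted p = 0.221). Slc3a2 was called lower in KO on day 6 (-0.17 ± 0.06), which was lost without any 1 of the 8 libraries (adjusted p 0.0501 to 0.126). Slc6a9, the glycine transporter, had 0 to 5 counts in each library.

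The aminoacyl-tRNA synthetases, which load tRNAs with their amino acids, split in direction. Of 12 tested with DMSO on day 7, Gars and Aars were higher in KO, and Sars, Tars, Yars and Lars were lower. Sars (chr3:108424865-108445209) stood at 141, 133, 145 and 136 CPM in WT and at 86.6, 81.5, 91.7 and 82.6 CPM in KO (-0.70 ± 0.07, adjusted p = 1.58e-08). Tars (chr15:11382301-11399665) stood at 93.9, 79.0, 77.6 and 68.8 CPM in WT and at 39.3, 51.0, 35.7 and 52.8 CPM in KO (-0.84 ± 0.12, adjusted p = 3.61e-06). Neither overlapped between KO and WT. Gars (chr6:55038007-55079500) went the other way, at 48.9, 51.0, 40.9 and 51.4 CPM in KO against 32.4, 29.2, 35.9 and 35.8 CPM in WT (0.54 ± 0.10, adjusted p = 0.000189). Aars had 38.6, 33.7, 38.4 and 43.1 CPM in KO against 21.9, 29.5, 28.5 and 33.0 CPM in WT (0.44 ± 0.11, adjusted p = 0.00324). Gars, Tars and Yars hold the core in their promoter window, so members with the core were called in both directions. Of the exonic length of Aars 15.1% is shared, mostly with Exosc6, so reads from that part cannot be assigned.

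On the other days fewer of the 12 synthetases were called than with DMSO on day 7 (50%, against 36% of all genes). Fewer of all genes were called on those days too. The share of synthetases was 8.33% on day 4 (against 1.59%) and 25% on days 5 and 6 (against 15% and 13.1%). On day 9 it was 0% (against 11.8%). On day 4 Aars was higher in KO, at 43.9, 40.8, 45.2 and 46.2 CPM against 30.9, 29.7, 32.6 and 29.7 CPM in WT (0.52 ± 0.11, adjusted p = 0.0133), and without replicate 2 of WT the adjusted p was 0.0528 with a log2 fold change of 0.50. On day 5 Lars (-0.36 ± 0.07, adjusted p = 0.000389) and Nars (-0.25 ± 0.07, adjusted p = 0.0089) were lower in KO. Cars was higher on day 5, at 27.1, 28.3, 23.8 and 25.1 CPM against 16.6, 22.2, 16.6 and 17.6 CPM in WT (0.52 ± 0.16, adjusted p = 0.024), a call lost with the GC and length correction and without any 1 of 4 libraries (adjusted p 0.0608 to 0.0726). On day 6 Gars was higher in KO, at 46.9, 45.2, 48.8 and 49.3 CPM against 33.3, 37.6, 34.4 and 35.0 CPM in WT (0.44 ± 0.10, adjusted p = 0.00226), and Tars was higher (0.37 ± 0.10, adjusted p = 0.0122), which was lost without replicate 3 of KO (0.28, adjusted p = 0.1). On day 9 none of the 12 was called. Mars, Eprs, Wars and Iars passed no test between KO and WT on any day. Lars was also called lower on day 6 (-0.20 ± 0.07, adjusted p = 0.0499), where the groups overlapped and the call was lost without any 1 of 7 libraries (adjusted p 0.0511 to 0.174).

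**Figure D4:**
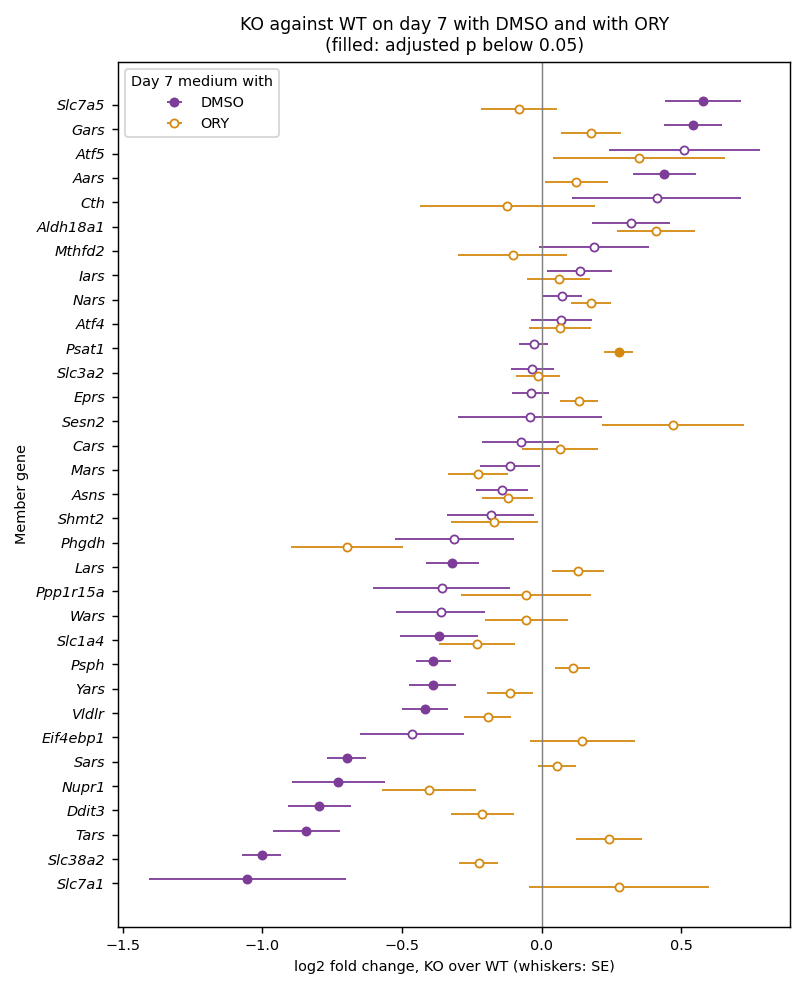
Log2 fold change of KO over WT on day 7 (x axis, whiskers are the SE) for the 33 members tested (y axis), with DMSO in purple and with ORY in orange; filled points have an adjusted p below 0.05. With DMSO 14 points are filled and reach from -1.05 (Slc7a1) to 0.58 (Slc7a5), and with ORY only Psat1 is filled.

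ORY moved more members up than down in both genotypes. In KO it raised 14 of the 33 members and lowered 1 (45.5%, against 38.7% of all genes, with 20.3% higher and 18.3% lower), with a median log2 fold change of 0.25 against -1e-04 over all genes. In WT it raised 9 and lowered 2 (33.3%, against 15.1%, with 8.16% higher and 6.91% lower), with a median of 0.10 against -0.0022. In KO the 14 were 7 synthetases, 3 enzymes, 2 transporters, Ddit3 and Ppp1r15a, and in WT the 9 were 6 synthetases, the enzymes Asns and Phgdh, and Slc7a5. Of the 15 calls in KO 10 held in every alternative, and of the 11 in WT 7 did, but summed libraries were not run for these comparisons.

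Of the members called in KO, Slc7a1 had the largest value (1.34 ± 0.35), at 6 to 19 counts with DMSO and 20 to 35 with ORY and with groups that overlapped in CPM, and Sars was next. Sars reached 207, 174, 205 and 179 CPM with ORY in KO, above all DMSO libraries (1.15 ± 0.07, adjusted p = 9.12e-13), and in WT it reached 183, 174, 194 and 184 CPM (0.40 ± 0.07, adjusted p = 0.000215). KO and WT overlapped with ORY. Tars rose in KO to 71.7, 87.9, 67.1 and 84.9 CPM (0.81 ± 0.12, adjusted p = 5.29e-06), and in WT it stood at 62.3, 78.3, 65.4 and 61.0 CPM with ORY, without a call. Wars, for tryptophan, rose in KO from 12.2, 9.81, 8.81 and 9.68 CPM to 17.2, 19.4, 16.7 and 21.5 CPM (0.88 ± 0.16, adjusted p = 6.10e-05). In WT it rose from 12.5, 12.2, 14.6 and 13.3 CPM to 19.5, 18.6, 14.9 and 24.9 CPM (0.58 ± 0.15, adjusted p = 0.01), and without replicate 4 of WT with ORY the value was 0.43 (adjusted p = 0.0747). Yars, Iars and Lars also rose in KO (0.54 ± 0.08, 0.41 ± 0.12 and 0.55 ± 0.09), and Gars fell by 0.30 ± 0.10, a call lost without any 1 of 5 libraries (adjusted p 0.0514 to 0.12).

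Whether KO and WT responded differently to ORY was tested as 1 contrast, the effect of KO with ORY minus the effect with DMSO, which uses the same DMSO libraries as the comparisons above. It called 8 of 33 members (24.2%, against 17.9% of all genes, with 10% above 0 and 7.86% below), 7 above 0 and 1 below, and all 8 were called in each of 23 alternatives. Summed libraries were not among these alternatives. Tars had the largest value at 1.08 ± 0.17 (adjusted p = 4.07e-05), followed by Slc38a2 at 0.78 ± 0.10 (adjusted p = 2.29e-06) and Sars at 0.75 ± 0.10 (adjusted p = 3.74e-06). Ddit3 (0.58 ± 0.16), Psph (0.50 ± 0.09), Lars (0.45 ± 0.13) and Psat1 (0.30 ± 0.07) were also above 0, and Slc7a5 was below it (-0.66 ± 0.19). The genes above 0 reached this in different ways. In Tars, Sars, Ddit3, Psph and Lars the level in KO was higher with ORY than with DMSO, whereas Slc38a2 was lower with ORY in WT. Psat1 moved by similar amounts in both genotypes, up in KO (0.15 ± 0.05, adjusted p = 0.0225) and down in WT (-0.15 ± 0.05, adjusted p = 0.055, not called). Its call in KO was lost with no filter, without any 1 of 3 libraries and with the GC and length correction, where the value was 0.02 (adjusted p = 0.78). With scaling to library size only, all log2 fold changes of KO against WT with DMSO would shift by -0.10, and 3 members were then higher and 15 lower.

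The list also differed between days in WT, where the collection day and the time since the virus cannot be told apart. The study replaced the medium every other day, so days 5 and 9 would share a point in that cycle and day 6 would not. The part that the change of medium had in the day 6 values was not tested. Compared with day 5, 6 of 35 members were higher on day 6 and 13 lower (54.3%, against 44.1% of all genes, with 21.5% higher and 22.6% lower), and on day 9 3 were higher and 8 lower (31.4%, against 22.7%, with 11.3% higher and 11.4% lower). On day 6 Ddit3 (1.40 ± 0.15, adjusted p = 1.83e-09), Nupr1 (0.79 ± 0.13), the transporters Slc38a2 (0.95 ± 0.07) and Slc3a2 (0.19 ± 0.06), the synthetase Sars (0.29 ± 0.10) and Atf5 were higher, while 9 of 12 synthetases, 3 transporters and Vldlr were lower. The calls for Atf5 and Slc3a2 were lost with the GC and length correction (0.57, adjusted p = 0.0729, and 0.10, adjusted p = 0.128) and with summed libraries, and that for Sars with summed libraries (adjusted p = 0.123). Slc1a4 went from 72.0, 59.5, 56.1 and 58.2 CPM on day 5 to 25.9, 23.6, 26.6 and 28.6 CPM on day 6 (-1.21 ± 0.11, adjusted p = 2.64e-11). Slc7a5 went from 43.8, 42.6, 44.3 and 40.3 CPM to 20.1, 20.7, 19.5 and 19.7 CPM (-1.10 ± 0.12, adjusted p = 1.98e-09). Neither gene overlapped between the days. On day 9 Slc1a4 was at 51.1 to 61.2 CPM and Slc7a5 at 34.6 to 39.2 CPM in WT, without a call against day 5. Ddit3 (0.65 ± 0.16, adjusted p = 0.00231) and Nupr1 (0.49 ± 0.13, adjusted p = 0.00441) were still above day 5 on day 9, and 7 synthetases were below it. With the libraries of each pair summed, 13 calls were left for day 6 and 1, Vldlr, for day 9.

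The effect of KO changed from day 5 to day 6 in 7 of 35 members (20%, against 12.6% of all genes, with 7.48% above 0 and 5.11% below) and from day 5 to day 9 in 5 (14.3%, against 9.21%, with 5.98% above 0 and 3.23% below), both contrasts sharing the day 5 libraries. From day 5 to day 6 Slc38a2, Tars (0.54 ± 0.14) and Vldlr (0.47 ± 0.09) were above 0, and Asns, Mthfd2, Pycr1 and Slc3a2 were below it. Each of these 4 calls was lost with the GC and length correction, where Slc3a2 went from -0.38 to -0.20 (adjusted p = 0.118). Tars had 56.8, 70.4, 70.8 and 55.5 CPM in WT and 58.8, 55.8, 60.5 and 51.0 CPM in KO on day 5, and 40.7, 38.2, 35.8 and 37.3 CPM in WT and 50.8, 42.8, 56.6 and 45.6 CPM in KO on day 6, so KO lay above WT on day 6 only. From day 5 to day 9 Slc38a2 (0.39 ± 0.10), Nars (0.37 ± 0.09) and Lars (0.37 ± 0.10) were above 0, and Vldlr (-0.48 ± 0.09) and Slc3a2 (-0.31 ± 0.08) below it. Slc3a2 was lost with the GC and length correction (-0.14, adjusted p = 0.305), and the log2 values of both contrasts fell with the GC content of genes (Spearman rho across genes -0.37 for day 6 and -0.35 for day 9). Lars, for leucine, had 144, 170, 151 and 161 CPM in WT and 132, 111, 123 and 124 CPM in KO on day 5, and 124, 126, 132 and 137 CPM in WT and 126, 130, 128 and 140 CPM in KO on day 9, so the groups overlapped on day 9 but not on day 5. With summed libraries 1 call was left for day 6, Slc38a2, and 0 for day 9, and with library size only the split for day 9 was 3 above and 4 below.

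**Figure D5:**
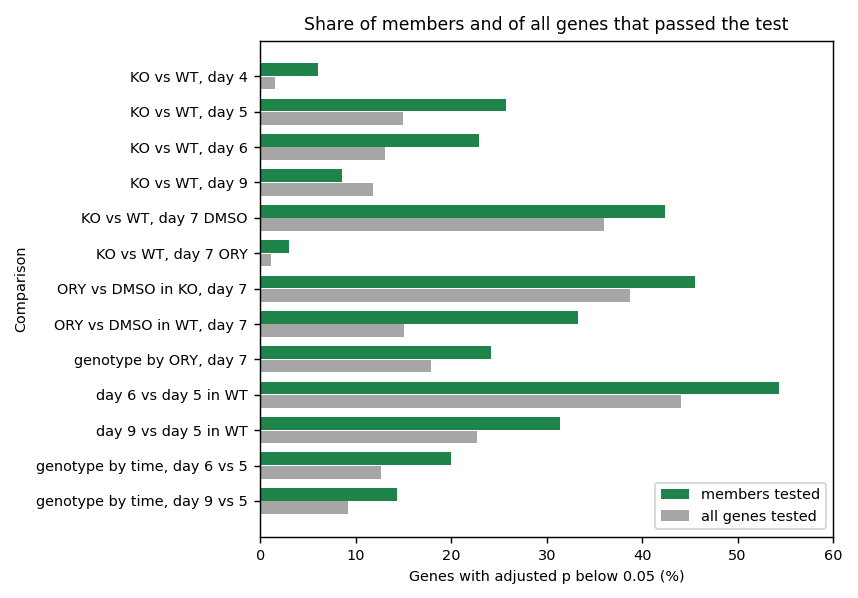
Share of members (green) and of all genes tested (grey) with an adjusted p below 0.05 (x axis, percent, starting at 0) in each of the 13 comparisons (y axis). The green bar is longer in 12 of the 13, the exception being KO against WT on day 9 (8.57% against 11.8%), and it is longest for day 6 against day 5 in WT (54.3%). The genes behind the grey bars were not matched to the members in level.

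Genes of the same pathway that were not members were read from 5 further lists. With DMSO on day 7, 2 of 19 genes for eIF2 kinases and translation control were higher in KO and 1 was lower (15.8%, against 36% of all genes, with 16.9% higher and 19.1% lower), with Eif2s1, a subunit of eIF2, at 0.31 ± 0.06 (adjusted p = 0.000334). Of 8 partner factors 3 were higher and 2 lower (62.5%). Cebpg, a partner of ATF4, stood at 263, 251, 249 and 214 CPM in KO against 192, 187, 179 and 159 CPM in WT (0.45 ± 0.07, adjusted p = 2.26e-05), and the groups did not overlap. Of 24 other genes linked to ATF4 5 were higher, among them Gadd45a (0.78 ± 0.14) and Sqstm1 (0.50 ± 0.10), and 5 were lower, among them Herpud1 (-0.59 ± 0.11), 41.7% in all.

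Slc38a1, which carries the same amino acids as Slc38a2, was another of the lower genes in KO with DMSO, at 23.4, 24.4, 23.1 and 20.5 CPM against 73.9, 58.8, 68.3 and 51.4 CPM in WT (-1.46 ± 0.11, adjusted p = 8.04e-11). With ORY it stood at 36.2, 34.4, 33.3 and 33.8 CPM in KO and at 38.3, 45.2, 41.5 and 33.8 CPM in WT, where the groups overlapped. ORY lowered it in WT (-0.68 ± 0.11) and raised it in KO (0.58 ± 0.12), and the difference of the 2 effects was 1.26 ± 0.16 (adjusted p = 1.85e-06).

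Of 10 cytosolic synthetases outside the list 2 were higher and 1 lower in KO with DMSO (30%, against 36% of all genes), and ORY raised 6 and lowered 0 in KO (60%, against 38.7%, with 20.3% higher and 18.3% lower). Kars, for lysine, was the lower one, at 78.2, 72.0, 72.0 and 70.8 CPM against 108, 109, 105 and 112 CPM in WT (-0.56 ± 0.07, adjusted p = 1.44e-07), and ORY raised it in KO to 121, 126, 127 and 126 CPM (0.77 ± 0.07, adjusted p = 5.08e-10). Of 16 mitochondrial synthetases 2 were higher and 6 lower in KO with DMSO (50%), and ORY raised 6 and lowered 2 in KO (50%). Tars2 stood at 5.88, 6.50, 4.56 and 7.97 CPM in KO with DMSO, at 18.1, 19, 24.4 and 19.7 CPM in WT with DMSO (-1.72 ± 0.18, adjusted p = 2.46e-08), and at 25.1, 20.7, 34.3 and 22.4 CPM in KO with ORY (2.04 ± 0.18, adjusted p = 7.44e-10). With ORY 0 genes of the 5 lists were called between KO and WT, near the share of all genes there (1.15%).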

How the data were processed

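The authors deposited raw counts per gene for 48 SMART-seq2 libraries in 3 tables (day 4; days 5, 6 and 9; day 7). Per the labels and the study's methods, reads were demultiplexed with bcl2fastq (2.17.1.14), trimmed with Trimmomatic (0.32), and aligned to GRCm38 with STAR (2.5.2a), which counted unique reads per gene. The strand setting and the annotation release are not given in the sources used here. Symbols were matched for 37693 of 39017 gene IDs, and no library had more than 0.2023% of its counts on IDs without one.

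Each table was fitted alone in edgeR 4.0.16 (R 4.3.3) with all its groups, TMM scaling, filterByExpr (minimum count 10, minimum total 15) and the quasi-likelihood test, with Benjamini-Hochberg adjustment over the 11430, 12549 and 11952 genes tested. All adjusted p-values in the text come from this fit, and a log2 fold change is given with its standard error. There were 13 comparisons. The fit was also run on simulated counts, drawn as independent libraries with the same spread for every gene of a table. These lacked the closeness between libraries described above, so they do not check the test where libraries are close. Total counts per library were 5811077 to 8396175 (day 4), 3137352 to 12374735 (days 5, 6 and 9), 4265876 to 20588555 (day 7), with a biological coefficient of variation of 0.117, 0.0962 and 0.0998. Levels were compared within a table only.

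The members and lists were chosen with earlier results of these data known. Every library is shown for Atf4, Atf5, Asns, Ddit3, Trib3 and Chac1, and per comparison for up to 3 members called with the largest change among those whose average log2 CPM reached 3. Further members were shown where a comparison turned on them and were chosen after their values were seen. Alternatives were DESeq2 1.42.0, library size only, no filter, only the groups compared, a GC and length correction, the replicate number as a block, and leaving out each library. Summed libraries were a further alternative for days 5, 6 and 9 only. Pairing by replicate number was checked on deviations from group means. Every same-number correlation was over 0.1 for KO against WT on day 6 (0.17 to 0.24) and day 9 (0.15 to 0.34), for both time comparisons in WT and for ORY in KO, and not for the others. The promoter window of 1 member was left out and is not reported here.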

Additional observations from a re-analysis of the deposited data

Results flagged for a closer look

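The 216 groups of 4 libraries of 18 members were searched for 1 library far from the other 3, which chance gives in about 1 of 20 groups, and 7 groups held one. Aars stood at 46.32 CPM in replicate 3 of WT with ORY (others 35.82 to 36.57). Atf5 stood at 2.202 CPM in replicate 2 of WT on day 9 (others 3.498 to 3.629) and at 4.659 CPM in replicate 3 of KO with ORY (others 2.618 to 2.914). Lars stood at 134.8 CPM in replicate 4 of WT on day 6 (others 119.9 to 121.6), and Mthfd2 at 6.746 CPM in replicate 2 of KO with ORY (others 8.494 to 8.628). Psat1 stood at 229 CPM in replicate 1 of KO on day 5 (others 239.8 to 240.6), and Sars at 195.4 CPM in replicate 4 of WT on day 5 (others 169.6 to 173.1).

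The effect of KO differed between ORY and DMSO, by the interaction test of edgeR with adjusted p, in Ddit3 (0.5848), Psat1 (0.3047), Psph (0.4999), Slc7a5 (-0.657), Slc38a2 (0.7781), Sars (0.7534), Tars (1.0827) and Lars (0.4489), as differences of log2 fold changes. Between days 6 and 5 it differed in Vldlr (0.4681), Asns (-0.3645), Mthfd2 (-0.6581), Pycr1 (-1.975), Slc3a2 (-0.3801), Slc38a2 (1.071) and Tars (0.5437). Between days 9 and 5 it differed in Vldlr (-0.4797), Slc3a2 (-0.3055), Slc38a2 (0.3918), Nars (0.3691) and Lars (0.3697).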

How the results depend on the processing

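Direction was checked for the members called in the main fit and, in every comparison, for Atf4, Atf5, Asns and Ddit3. None of these changed direction past the threshold under any alternative run. The number of members called moved by more than 1.5 times as follows, and the cause was not tested. On day 4 (2 members) it was 5 with no filter, 4 with the replicate block and 5 with DESeq2. On day 5 (9) it was 5 with the GC and length correction and 2 with summed libraries. On day 6 (8) it was 13 with the replicate block and 2 with summed libraries. On day 9 (3) it was 6 with the replicate block, 5 with the GC and length correction, 7 with both and 5 with DESeq2. On day 7 with ORY (1) it was 2 with library size only, 5 with the replicate block, 3 with the GC and length correction, 4 with both and 2 with DESeq2. For day 9 against day 5 in WT (11) it was 1 with summed libraries. For genotype by time it was 4 with the GC and length correction and 1 with summed libraries for day 6 (7), and 10 with the replicate block and 0 with summed libraries for day 9 (5). The block changed no other count by this much.

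Leaving out each library in turn gave 1 to 3 members on day 4 (1 without replicate 2 of WT), 4 to 8 on day 5 (4 without replicate 3 of WT), 4 to 8 on day 6 (4 without replicate 3 of KO) and 2 to 4 on day 9 (2 without replicate 3 of KO). On day 7 it gave 12 to 15 with DMSO, 1 to 1 with ORY, 11 to 16 for ORY in KO, 7 to 11 for ORY in WT (7 without replicate 4 of WT with ORY) and 8 to 9 for genotype by ORY. Over time in WT it gave 16 to 20 and 9 to 13, and for genotype by time 4 to 8 and 5 to 7. For single genes 2507 values stayed as they were, called or not called, 241 lost a call and 22 gained one. The 2507 include values of Atf4, Atf5, Asns and Ddit3 in comparisons where these genes were not called. At 2 to 18 counts a library the standard error of Pycr1 on day 6 was 0.49.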
